A study of Rattus norvegicus with 36 samples.

Results

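The early gain regions are 8083 short stretches of the rat genome whose DNA went from nearly unmethylated in gonocytes of day GD18 to well methylated in gonocytes of day GD20, and which the authors did not list as gaining again by PND5. They are all members of the group that the authors put first among their 3 groups of regions that gain methylation, beside 36401 continuous gain regions, almost all listed at both steps, and 10275 late gain regions, listed at the second step. The 3 groups hold 54759 regions, and the lists of all stages hold 60036 distinct regions. In a part of a gene lay 4862 of the early gain regions, in 2665 genes.

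The germ cells came from male Sprague-Dawley rats of the GCS-EGFP line, in which green fluorescence marks the germ cells, and no group was treated. The 9 stages are gonocytes of GD16, GD18 and GD20, spermatogonia of PND5, spermatozoa, and 4 classes of spermatids, R1-8, R9-12, R13-14 and R15-17. Bisulfite sequencing of captured DNA was done on them with 4 samples a stage and 36 samples in total. Cells were sorted by their fluorescence, while DNA of spermatozoa was taken out with a kit of its own. The labels do not say whether samples came from separate animals. Region lists hold methylation only, so the identity of the sorted cells could not be checked against marker expression. Each level below is the authors' mean over a stage, with no value per sample, so it has no SD and no n, and its read depth is unknown. Coordinates are printed as in the region lists, and the sources used here do not name their genome build.

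Male germ cells erase most of their DNA methylation as primordial germ cells and write a new pattern, mainly before birth, while they rest as gonocytes. The methyltransferase DNMT3A and its cofactor DNMT3L lay down most of this pattern in the mouse, and DNMT3C together with small piRNAs directs methylation to young transposons there. Methylation inside introns and between genes is the usual state of mammalian DNA, whereas promoters rich in CG pairs mostly stay free of it.

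Promoters of the early gain regions carried few CG pairs. Below are 6 promoters with an early gain region, printed to show how sparse their CG pairs are. The first 4 are the promoters with the largest gains among those found in the RefSeq table, and the other two belong to genes described further on. Each sequence runs 5' to 3' from 250 bases before to 50 bases after the start of the gene, from RefSeq on build GRCr8, with CG pairs in capitals.
Lcn5 (GRCr8 chr3:28871073-28871372, plus strand): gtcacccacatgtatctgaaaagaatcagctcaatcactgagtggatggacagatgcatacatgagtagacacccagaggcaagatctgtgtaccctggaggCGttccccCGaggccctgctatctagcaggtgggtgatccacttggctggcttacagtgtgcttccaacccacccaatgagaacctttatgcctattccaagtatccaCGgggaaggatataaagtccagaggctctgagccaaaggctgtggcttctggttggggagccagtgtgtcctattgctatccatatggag
Sla2 (GRCr8 chr3:165841999-165842298, minus strand): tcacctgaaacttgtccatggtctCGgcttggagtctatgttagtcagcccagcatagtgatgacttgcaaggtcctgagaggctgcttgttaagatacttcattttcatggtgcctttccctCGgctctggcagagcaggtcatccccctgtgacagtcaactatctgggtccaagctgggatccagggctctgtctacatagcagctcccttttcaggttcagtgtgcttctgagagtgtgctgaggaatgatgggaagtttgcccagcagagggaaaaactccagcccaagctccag
Agtpbp1 (GRCr8 chr17:5139003-5139302, plus strand): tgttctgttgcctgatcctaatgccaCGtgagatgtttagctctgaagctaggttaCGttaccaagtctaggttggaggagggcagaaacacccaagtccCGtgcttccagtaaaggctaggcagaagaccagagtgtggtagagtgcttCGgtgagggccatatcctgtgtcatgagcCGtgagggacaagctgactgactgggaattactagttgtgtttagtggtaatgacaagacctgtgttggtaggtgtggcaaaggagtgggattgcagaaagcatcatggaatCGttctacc
Kank1 (GRCr8 chr1:232381470-232381769, plus strand): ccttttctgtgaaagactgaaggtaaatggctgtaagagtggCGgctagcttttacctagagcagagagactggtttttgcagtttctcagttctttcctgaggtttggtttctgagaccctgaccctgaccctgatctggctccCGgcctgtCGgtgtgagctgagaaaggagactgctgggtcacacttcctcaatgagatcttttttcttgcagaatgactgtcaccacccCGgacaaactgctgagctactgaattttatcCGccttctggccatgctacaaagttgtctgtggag
Cacna1c (GRCr8 chr4:154051699-154051998, minus strand): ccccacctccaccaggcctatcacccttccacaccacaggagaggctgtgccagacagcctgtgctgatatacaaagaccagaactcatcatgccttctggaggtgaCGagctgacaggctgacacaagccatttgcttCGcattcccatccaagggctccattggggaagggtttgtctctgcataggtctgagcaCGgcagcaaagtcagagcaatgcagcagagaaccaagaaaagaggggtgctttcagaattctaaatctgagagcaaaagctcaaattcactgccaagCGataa
Pbld1 (GRCr8 chr20:25564252-25564551, minus strand): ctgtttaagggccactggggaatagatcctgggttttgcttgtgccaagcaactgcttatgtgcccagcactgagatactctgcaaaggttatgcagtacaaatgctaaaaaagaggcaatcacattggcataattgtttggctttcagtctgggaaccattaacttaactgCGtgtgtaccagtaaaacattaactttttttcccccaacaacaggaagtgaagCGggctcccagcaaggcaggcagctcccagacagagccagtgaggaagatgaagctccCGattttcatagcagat

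The promoter of Lcn5, which encodes a lipocalin of the epididymis, rose from 8.2% at GD18 to 84% at GD20, and its 300 bases hold 3 CG pairs. Sla2, an adaptor of antigen receptor signalling, rose from 6.6% to 82.3% with 2 CG pairs in the window. Agtpbp1, an enzyme that trims glutamate chains from tubulin, rose from 8.2% to 83.4% with 6 CG pairs, and Kank1, a regulator of the actin cytoskeleton, from 6.6% to 81.2% with 5. These 4 promoters thus started under 10% and ended above 80%. The levels are those of the measured regions and not of the printed windows. The measured regions hold 6 CpGs in 482 bp for Lcn5 and 6 in 803 bp for Sla2. For Agtpbp1 they are 5 CpGs in 256 bp and for Kank1 5 in 503 bp. How far a measured region and its window overlap is not known, because the build of the region lists is not named. Of 145 genes with an early promoter region, 109 matched a promoter of the table. Their windows held a median of 5 CG pairs (interquartile range 3 to 7), against 5 in the continuous group, 6 in the late group and 7 (interquartile range 3 to 20) in all 27457 promoters of the table. At least 15 CG pairs were found in 8 of the 109 early promoters (7.34%), in 12.5% of continuous and 14.8% of late ones, and in 34.6% of all promoters. At least 1 CG pair was present in 99.1% of the early promoters and in 94.8% of all, so the motif searched, CG, which reads the same on both strands, is no mark of the group by itself. The capture panel chooses which promoters can be measured, and its part in these shares was not tested.

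The regions were chosen by their levels at GD18 and GD20 and by their absence from the second list, so these levels are given as a description. At GD18 the early gain regions had a median level of 7% (interquartile range 5.7 to 8.4, lowest 0.1, highest 19.6). At GD20 the median was 71.1% (interquartile range 67.9 to 75.4, lowest 32.9, highest 98.2). The gain of a region had a median of 64 percentage points, from 30.1 to 90. The continuous gain regions went from a median of 5% over 52.2% at GD20 to 97.1% at PND5, and the late gain regions from 23.5% at GD20 to 85.9% at PND5. All 8083 early gain regions are in the list of GD18 against GD20, which holds 74.1% of the distinct listed regions, and none has the coordinates of a region in the list of GD20 against PND5, which holds 77.7%. The early gain regions therefore carry no PND5 level.

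The smallest difference in the fetal and neonatal lists was 30 points, so a region above 70% at GD20 could not enter the second list by a gain. Of the early gain regions 4697 (58.1%, Wilson 95% interval 57 to 59.2) lay above 70% at GD20, and no continuous region did. Another 2699 (33.4%) lay above 60% and up to 70%. The remaining 687 (8.5%, 7.91 to 9.13) lay at 60% or lower. In all 3386 early gain regions (41.9%) lay at 70% or lower and so had at least 30 points left to gain. Among early and continuous regions together, the early group made up 51.3% of those above 65% and up to 70% (2181 early, 2069 continuous), but 8.56% of those above 60% and up to 65%. The switch between the groups thus falls within a few points of the level that the smallest listed difference sets.

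**Figure D1:**
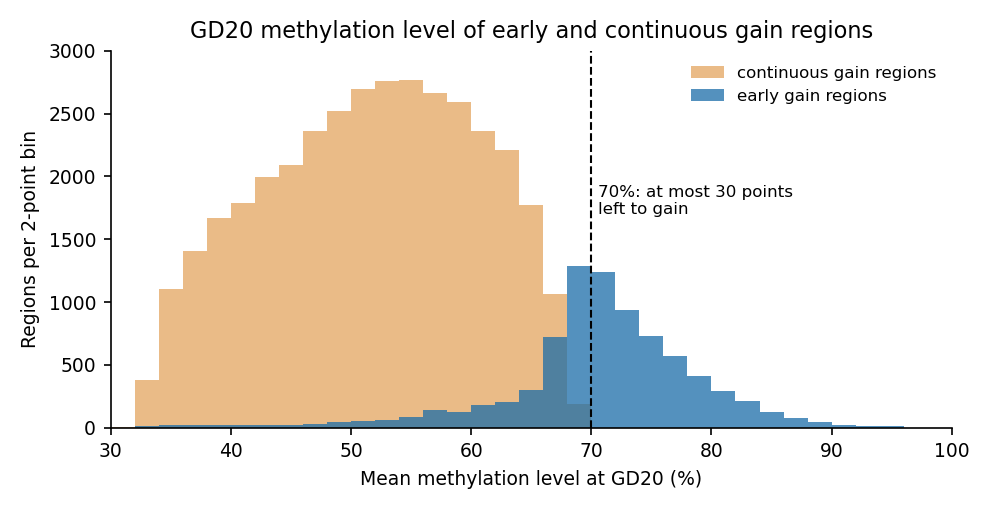
Number of regions (vertical axis) in each 2-point bin of the mean methylation level at GD20 in percent (horizontal axis), for early and continuous gain regions. The groups meet near the dashed line at 70%, above which a gain of 30 points is not possible: 4697 early and 0 continuous regions lie to its right.

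Regions on either side of this boundary had similar levels. Intron 5 of Slc22a3, an organic cation transporter gene (chromosome 1, 48506440 to 48507110), went from 7.9% to 70% and was early, as was intron 3 of Igf1r, the receptor of insulin-like growth factor 1 (chromosome 1, 129143362 to 129143576), from 7.3% to 70%. Exon 7 of Gnb1, a G protein subunit gene (chromosome 5, 172965585 to 172965720), went from 10.9% over 69.8% to 100% at PND5 and was continuous, as was intron 12 of Pxk, from 5.7% over 69.6% to 99.6%. The lowest GD20 level of an early gain region was 32.9%, at 2 intergenic regions. In genes, the lowest levels were 33.5% in intron 9 of Bag2, a co-chaperone, 34.1% in intron 1 of Mgp, an inhibitor of calcification, 34.6% at the promoter of Psmb6l1 and 35.2% in intron 2 of Cyyr1. These 4 had risen from 2.6%, 3.5%, 4.1% and 4.5%, gains close to the smallest listed difference.

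At the upper end, single regions in genes were almost fully methylated at GD20. Intron 4 of Clstn1, which encodes calsyntenin, a membrane protein of synapses (chromosome 5, 166584323 to 166584399), rose from 10.2% to 98.2%, the highest level of the group. The 3' UTR of Hras, a small GTPase (chromosome 1, 214178894 to 214179132), rose from 4.7% to 92.4%. Intron 5 of Parvb, an actin-binding protein of focal adhesions (chromosome 7, 125251988 to 125252204), rose from 5.5% to 92.9%. Exon 10 of Dync1li2, a dynein subunit, reached 92.6% and exon 5 of Galnt2, an enzyme of O-glycosylation, 91.5%. Of the regions at transcript ends, that of Satb1, an organiser of chromatin loops, rose from 3.5% to 80.2%, and that of Acd, a shelterin protein at telomeres, from 7.1% to 84.5%. These regions hold 5 or 6 CpGs, close to the smallest number of 5 in the lists. Above 80% at GD20 lay 804 early gain regions (9.95%), of which 364 hold 5 CpGs and 0 hold 20 or more.

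More of the early gain regions lay in introns than in any other part. Introns held 4083 of them (50.5%, 49.4 to 51.6), exons 361 (4.47%), promoters 145 (1.79%), and 3221 (39.8%) lay between genes. In the continuous group 41.6% and in the late group 25.7% of regions were intronic. Turned around, 18.7% (18.2 to 19.2) of all intronic gain regions were early, against 12.3% (11.9 to 12.7) of intergenic ones, 10.6% of those in exons and 12.9% of those in promoters, where all parts together gave 14.8%. Few early exon regions lay at the ends of genes: 6 of 361 (1.66%) in first exons and 24 (6.65%) in last exons, against 4.21% and 16.6% in the continuous group and 8.76% and 27.3% in the late group. First introns held 21.1% of early, 23.1% of continuous and 30.3% of late intronic regions. The medians of the gain were alike across parts, from 63.4 points in promoters to 64.1 in introns and exons. The shares were not tested, since neighbouring regions are not independent, and the intervals cover counting error only.

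The early share differed more between regions with few and many CpGs than between parts of the gene. Early gain regions held a median of 7 CpGs in 428 bp, against 8 in 468 bp for continuous and 8 in 368 bp for late regions, and their density was 1.83 CpGs per 100 bp against 2.05 and 2.43. Among gain regions with 5 CpGs 21.5% were early, among those with 8 or 9 CpGs 14.9%, among those with 10 to 14 CpGs 10.9%, and among those with 20 or more 3.12% (77 of 2470). The median GD20 level of the early gain regions fell with it, from 72.5% at 5 CpGs to 68.3% at 20 or more. A mean over few CpGs can lie further from its true value, and the part of this in the shares was not tested. Within each range of CpG number the early share was still higher in introns than between genes: 24.6% against 16.4% at 5 to 7 CpGs, 19.3% against 11.4% at 8 or 9, and 11.7% against 7.19% at 10 or more. Exons gave 17.5%, 13.3% and 5.26% in the same ranges. With regions split by density, introns were again higher, at 21.7% against 15.2% between genes for up to 2 CpGs per 100 bp and 14.4% against 9.72% above 3.

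**Figure D2:**
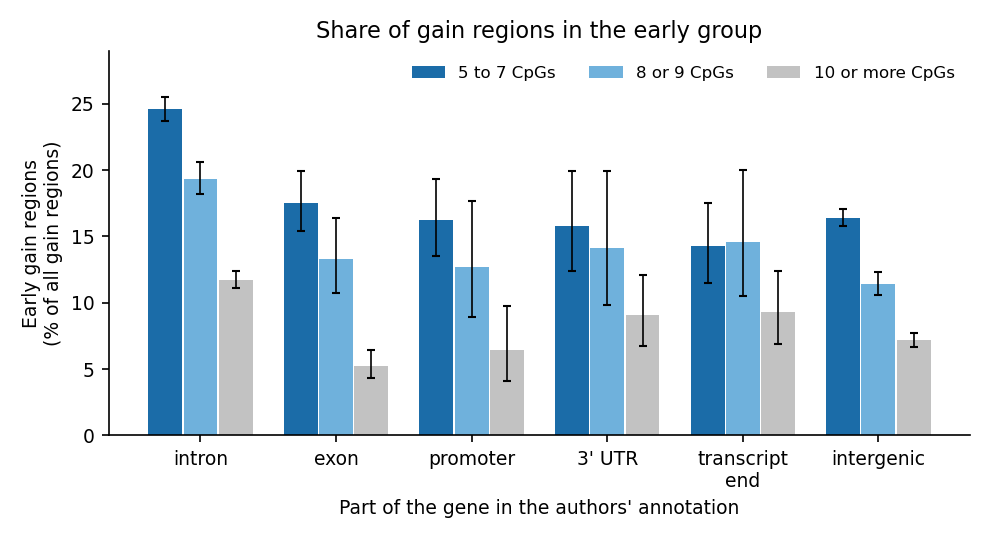
Share of gain regions that belong to the early group (vertical axis, percent) by part of the gene (horizontal axis) and by number of CpGs in the region (bars), with Wilson 95% intervals that cover counting error only. In introns the share falls from 24.6% at 5 to 7 CpGs to 11.7% at 10 or more, and at each CpG number the intronic bar stands above the intergenic one.

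Early gain regions were found on chromosomes 1 to 20 and X, and 3 lay on sequences outside these chromosomes. Their share of the gain regions ran from 12.4% on chromosome 15 to 17.8% (16.2 to 19.4) on chromosome 19 among the autosomes, and was 9.57% (6.82 to 13.3) on the X chromosome, with 31 of 324. The X chromosome held 0.384% of early, 0.409% of continuous and 1.4% of late regions. Intron 8 of Clcn5, an exchanger of chloride and protons (chromosome X, 16190321 to 16190554), rose from 3.9% to 88.3%. Exon 2 of Amer1, a Wnt pathway regulator that acts on the beta-catenin destruction complex (chromosome X, 64688890 to 64689469), rose from 8.2% to 80.8%.

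Early gain regions lay among regions of the other groups. The median gap from an early gain region to the nearest other one was 25.2 kb, and to the nearest gain region of any group 1.87 kb. That nearest region was early for 1541 of 8083 early gain regions (19.1%, 18.2 to 19.9) and for 14.2% (13.8 to 14.5) of continuous and late regions. At gaps over 1 and up to 5 kb the values were 21.2% for early, 16.7% for continuous and 10.5% for late regions. At gaps of up to 0.2 kb the order of early and continuous was turned, with 2 of 39 early (5.13%, 1.42 to 16.9) and 13.9% of 166 continuous regions, in intervals that overlap. In 3 places an early gain region overlapped, by at least 1 bp, a neighbouring region of the second list. The clearest is intron 4 of Wnt3, a Wnt ligand, where an early gain region of 1095 bp stood at 86% at GD20 and the region that borders it at 38.9%, which then reached 93.1% at PND5.

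A run was counted as early gain regions no more than 10 kb apart with no continuous or late region between them. Counted in regions, the largest such run lay in Igf2r, the imprinted receptor that clears insulin-like growth factor 2, with 5 regions within 11.986 kb (chromosome 1, 48242855 to 48254840). Intron 26 rose from 9% to 75.9%, exon 34 from 10.2% to 80.4%, intron 35 from 11.2% to 65.9%, intron 37 from 15.6% to 87.4% and exon 39 from 7.8% to 67.9%. The other 4 regions of the gene belonged to the other groups, as Igf2r held 9 gain regions in all. Runs of 4 were found in 13 places, among them Smad1, which carries BMP signals to the nucleus, Fbln1, an extracellular matrix protein, Clstn1 and Wnk2, a kinase.

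Most genes with an early gain region also held other gain regions. Of the 2665 genes, 474 (17.8%) held early gain regions only, 2097 (78.7%) also held continuous and 870 (32.6%) also held late ones. A single early gain region was found in 1709 genes, and 5 or more in 168. Fbxl17, which encodes the substrate receptor of a ubiquitin ligase, held the most with 16 early of 37 gain regions. Among genes with a symbol, Cmip followed with 14 of 39, the postsynaptic scaffold gene Dlgap2 with 13 of 55 and Btbd9 with 13 of 57. The L-type calcium channel gene Cacna1c held 12 of 41, Kalrn 12 of 42 and Nav2 12 of 45. Genes known in the annotation only as NM_053583 and NM_001008300 held 15 of 42 and 12 of 44.

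In Fbxl17 the 16 early gain regions all lay in introns 4 to 8 and spanned 67% to 82.2% at GD20, while its 21 continuous regions spanned 39.9% to 69.4%. In Cmip the 14 early gain regions lay in introns, 8 of them in intron 1, at 67.4% to 80.5%. Cacna1c held early gain regions from its promoter, which went from 5.2% to 63.7% (chromosome 4, 151269105 to 151269801), over introns 1, 3, 7 and 18 to exon 42, which went from 6.6% to 67.3%. Its highest early level was 84.2%, in intron 3. The GD20 ranges of early and continuous regions thus overlapped by a few points within each of these 3 genes.

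Among 553 genes with 10 or more gain regions the early share had a median of 18.2% (interquartile range 10 to 27.3), and 52 of these genes (9.4%) held no early gain region. The genes below were chosen after their values were seen. Magi2, a scaffold of synapses and cell junctions, held 33 gain regions and none early, with its 26 continuous regions at 36% to 66.2% at GD20. Kcnip1, a subunit of potassium channels, held 21 and Runx2, a transcription factor of bone formation, 15, again none of them early. At the other end Wnk2 held 10 early of 12 gain regions, the highest share of the 553 (83.3%). Its early gain regions lay in introns 1 to 11, from 59.2% in intron 7 to 87.4% in intron 1. Anapc5, a subunit of the anaphase-promoting complex, Apba2, Capn5 and Smarcal1 held 4 early of 5 gain regions each.

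The gene lists were read by genes and by regions. Of 8302 genes with a gain region 32.1% held an early one, and 17% of their 28613 regions were early. A gene with more regions has more chances to hold an early one, so the share of regions is the steadier measure.

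Genes of the actin cytoskeleton and the leading edge held early gain regions in 24 of 36 genes (66.7%), and 65 of their 255 regions were early (25.5%, 20.5 to 31.2), with a median of 8 CpGs, as over all genes. Myo5b, a myosin of vesicle transport, held 10 early of 34 regions. Intron 25 of Vav3, a signalling gene, rose from 7.7% to 84.2%. Intron 17 of Diaph3, a formin that builds actin filaments, rose from 3.2% to 86.8%, and intron 11 of Evl, which speeds their growth, from 8.5% to 83.6%. The list was drawn up with the authors' terms for these regions known, so its share is not independent evidence. Genes of focal adhesions and integrins gave 16 of 22 genes (72.7%) and 38 of 184 regions (20.7%, 15.4 to 27.1). The interval of this list holds the 17% of all genic regions. Intron 14 of Fermt2, an activator of integrins, rose from 3.5% to 84.1%, and intron 19 of Tln1, which ties integrins to actin, from 6% to 77.8%. For genes with early gain regions, the authors' deposited table of functional terms lists actin filament binding with 70 of 2329 genes (3.01%) against 163 of 10394 background genes (1.57%), with an adjusted p of 1.58e-06. The authors' tables for the other groups give 0.00129 for the continuous and 0.0141 for the late regions on the same term. This order does not hold for all terms of the early group, and those printed here and below are a selection. For cell-cell junction the authors give 6.07e-06 for the early, 8.67e-07 for the continuous and 0.000164 for the late regions. The groups hold unlike numbers of genes (2665, 6711 and 2988), so adjusted p values do not rank them.

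Genes of synapses and axon guidance gave 94 of 503 regions (18.7%, 15.5 to 22.3) in 31 of 51 genes. Intron 6 of Ntrk2, the receptor of a neurotrophin, rose from 7.3% to 86.6%, and the gene held 11 early of 46 regions. Grin2a, a glutamate receptor gene, held 4 early of 13. Calcium and potassium channel genes gave 58 of 322 regions (18%, 14.2 to 22.6). Intron 1 of Kcnk13, a potassium channel gene, rose from 10.1% to 87.9%, and exon 2 of Cacna2d2, an auxiliary subunit of calcium channels, from 9.5% to 85.1%. Both lists lay close to the 17% of all genic regions. The authors' deposited table gives modulation of chemical synaptic transmission with 148 of 2475 genes (5.98%) against 4.05% of the background, adjusted p = 0.000216, with 0.0108 for the continuous and 0.00514 for the late regions in their own tables. The authors' deposited table also gives the voltage-gated calcium channel complex with 19 of 2507 against 32 of 11375, adjusted p = 0.000359, with 0.044 and 0.000901 for the other groups.

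Imprinted genes gave 12 of 44 regions (27.3%, 16.3 to 41.8), all in 3 of 9 genes. Igf2r held 5, Gab1, an adaptor of receptor kinases, 5 of 12 with 78.5% at most in intron 1, and Rasgrf1, a Ras activator, 2 of 7. Germline and piRNA genes gave 9 of 44 (20.5%, 11.2 to 34.5). Intron 11 of Tdrd5, a Tudor protein of the piRNA pathway, rose from 8% to 73.2%, and intron 9 of Ddx25, an RNA helicase of spermatids, from 4.4% to 69.6%. The methylation machinery gave 8 of 43 (18.6%, 9.74 to 32.6), among them exon 6 of Dnmt3l, the cofactor named above, from 3.1% to 64%, and intron 15 of Kdm1b, a demethylase of histone H3, from 7.8% to 74.8%. Stem cell and germ fate genes gave 22 of 124 (17.7%, 12 to 25.4), led by intron 2 of the niche factor gene Gdnf from 8% to 90.9% and intron 1 of Itga6, an integrin of stem cells, from 7.9% to 85.5%. Intron 3 of Kitlg, the ligand of the KIT receptor, rose from 6.8% to 78.6%. The interval of each of these 4 lists holds 17%.

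Lower shares were found in Wnt, BMP and TGF-beta genes (15.9%, 34 of 214), developmental transcription factors (15.2%, 42 of 276) and spermatid genes (10.6%, 7 of 66), and chromatin enzymes gave 16.9% (31 of 183), all with intervals that hold 17%. The 3' UTR of the ligand gene Wnt7a rose from 8.4% to 79.7% and intron 2 of the co-receptor gene Tgfbr3 from 7.6% to 78.6%. Foxp1 held 6 early of 26 regions, Sox5 7 of 54. Of the spermatid genes, the promoter of Odf1, a protein of the sperm tail's outer dense fibres (chromosome 7, 77066171 to 77066432), rose from 8.6% to 77.2%, and the transcript end of Brdt, a reader of acetylated histones, from 6.4% to 75.4%. Of the chromatin enzymes, intron 10 of Kat2a, a histone acetyltransferase, rose from 4.4% to 75.4%.

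Markers of other testis cells were counted in the same way, beside the 32.1% of all genes and 17% of all genic regions. Of 12 Sertoli cell marker genes with a gain region 0 held an early one (0 of 19 regions, upper bound 16.8%), of 3 Leydig and peritubular genes 0 (0 of 12, upper bound 24.2%), and of 10 blood and endothelial genes 3 (30%), with 4 of 51 regions (7.84%, 3.09 to 18.5). These 3 were Pecam1, an adhesion protein of endothelium, with 71.1% at GD20 in intron 8, Flt1, a receptor of vascular growth factors, with 67.7% in intron 17, and Itgam, an integrin of leukocytes, with 51.8% in intron 1. The interval of the Sertoli markers ends just under 17%, and the intervals of the other two lists hold it. The part of other cells in the sorted samples was not tested.

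**Figure D3:**
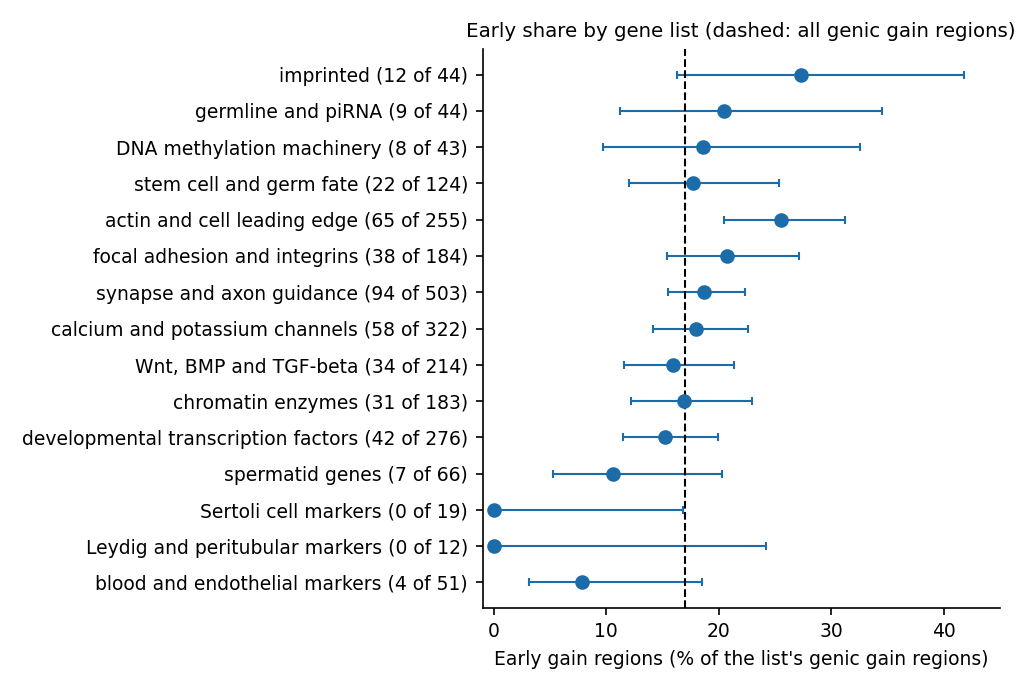
Share of early gain regions among the genic gain regions of each gene list (horizontal axis, percent; early of all regions in brackets), with Wilson 95% intervals and the 17% of all genic gain regions as a dashed line. The actin list, at 25.5%, is the only one whose interval lies wholly to the right of the line, and the Sertoli cell markers, with 0 of 19, end at 16.8%.

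A few early gain regions were listed as losing methylation before their gain. A GD16 level exists only for regions in the list of GD16 against GD18, so the GD16 level of all others is not known. In that list stood 19 early gain regions (0.235%, 0.151 to 0.367), where 0.299% of all gain regions were listed. They went from a median of 40.7% at GD16 to 5.4% at GD18 and 71.1% at GD20. At GD20 all 19 stood above their GD16 level, by a median of 33.6 points (9.6 to 47.7). The GD18 level enters both lists, and the regions were chosen by their GD18 and GD20 levels. The rise above the GD16 level is therefore a description only. The 95 continuous regions in that list had medians of 36.9% at GD16 and 51.2% at GD20, and the 50 late ones 35.75% and 23.95%. Dlgap2 held 2 of the 19 early gain regions: intron 1 (chromosome 16, 80575071 to 80575422) went from 36.9% over 3% to 83.7%, and intron 5 (chromosome 16, 79973709 to 79973881) from 41.8% over 8.2% to 65.6%. Exon 2 of Got2, the mitochondrial aspartate aminotransferase (chromosome 19, 9598323 to 9598424), went from 37.7% over 6.7% to 71.8%. Intron 5 of Ldlrad4, an inhibitor of TGF-beta signalling (chromosome 18, 63907868 to 63907947), went from 42% over 4.8% to 70.9%.

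The levels of the spermatid stages were not used to choose the regions, although absence from the second list bears on how far a region could be methylated before them. A level there exists only where the authors listed a difference of at least 10 points between neighbouring stages, and 350 early gain regions (4.33%, 3.91 to 4.8) were listed at 1 or more of the 4 steps, where 7.72% of all gain regions were, 5.27% (5.04 to 5.5) of continuous and 19.1% (18.3 to 19.8) of late ones. By step, 114 (1.41%), 195 (2.41%), 167 (2.07%) and 29 (0.359%) early gain regions were listed, beside 2.37%, 4.19%, 3.59% and 1.22% of all gain regions. The continuous group alone gave 1.43%, 2.98%, 2.65% and 0.39%, so the early shares lie close at the first and last steps. They are lower at the second (2.1 to 2.77 against 2.81 to 3.16) and at the third (1.78 to 2.4 against 2.49 to 2.82). It is the late group, with 6.48%, 9.87%, 8.1% and 4.83%, that raises the value of all regions.

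Direction followed the step. From R1-8 to R9-12, 97 early gain regions (1.2%) were lower and 17 (0.21%) higher, beside 1.72% and 0.656% of all gain regions. From R9-12 to R13-14, 125 (1.55%) were lower and 70 (0.866%) higher, beside 2.69% and 1.5%. From R13-14 to R15-17, 13 (0.161%) were lower and 154 (1.91%) higher, beside 0.566% and 3.02%. From R15-17 to spermatozoa, 10 (0.124%) were lower and 19 (0.235%) higher, beside 0.63% and 0.588%. Each of these shares of the early gain regions is below that of all gain regions, which the late group raises. Against the continuous group the early share listed as higher was larger at the first step (0.21% against 0.121%) and at the last (0.235% against 0.143%), and smaller at the second (0.866% against 1.07%) and at the third (1.91% against 2.49%). At the last step 65.5% (47.3 to 80.1) of the 29 listed early gain regions were higher, but 36.6% (29.1 to 44.8) of the 142 listed continuous ones. Of these 29, 10 lay at 60% or lower at GD20, a class that makes up 8.5% of the early group. The choice of the groups can therefore bear on this contrast, and its part was not tested. The regions lower at the first step fell from a median of 97.4% to 84.4%, and those higher at the third step rose from 84.85% to 98.2%. The last step compares DNA from 2 kits, and kit and stage cannot be told apart there.

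**Figure D4:**
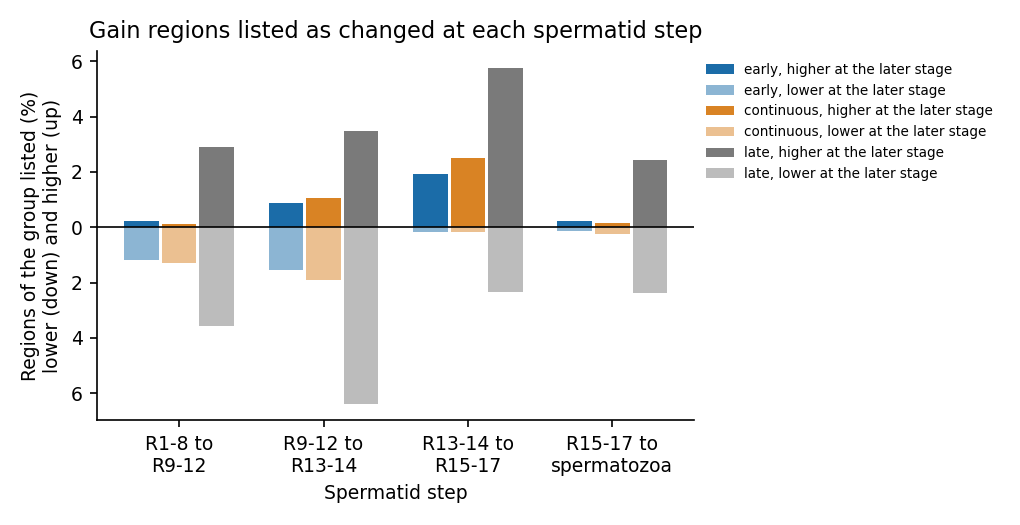
Share of each group's regions (vertical axis, percent) listed as higher (bars up) or lower (bars down) at the later stage, for the 4 spermatid steps (horizontal axis). Of the early gain regions listed at a step, most are lower at the first (97 of 114) and higher at the third (154 of 167). At the last step the early bar is taller upwards (0.235% against 0.124%) and the continuous bar downwards (0.247% against 0.143%). The choice of the groups can bear on this contrast.

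A part of these differences was undone at the next step, in early and continuous regions at like shares. From R9-12 over R13-14 to R15-17, 82 early gain regions fell and rose again, with medians of 97.4%, 83.7% and 98.1%, and 81 of them ended within 10 points of where they began. They made up 65.6% (56.9 to 73.4) of the early gain regions that fell from R9-12 to R13-14, where the share was 66.8% (63.2 to 70.2) in the continuous group, 42.7% in the late group and 56% over all gain regions. From R1-8 over R9-12 to R13-14, 46 did so, with medians of 97.2%, 82.65% and 97.6%, all within 10 points. They were 47.4% (37.8 to 57.3) of the early gain regions that fell at that first step, beside 51.1% in the continuous group, 43.5% in the late group and 47.7% over all. Both differences of such a pair share the level of the middle stage. Intron 4 of Tle3, a corepressor (chromosome 8, 66304949 to 66305463), went from 96.5% over 76.3% to 97.1%. Intron 20 of Tbc1d31 (chromosome 7, 97835918 to 97836201) went from 94% over 66.2% to 98.2%. Intron 19 of Dip2a (chromosome 20, 13093739 to 13094286) fell from 99.2% in R13-14 to 77.2% in R15-17 and stood at 98.4% in spermatozoa. Intron 1 of Tmod3, which caps actin filaments (chromosome 8, 82478978 to 82479532), was listed at all 4 steps, with 97.9%, 82.6%, 97.8%, 85.9% and 96.9%.

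Among the few early gain regions with a level in R1-8 spermatids, that level was described by class of the GD20 level. Early gain regions above 70% at GD20 had a median of 97.7% in R1-8 spermatids (interquartile range 96.1 to 98.5, 58 regions), and 51 of these stood at 90% or more. Those above 60% and up to 70% had a median of 96.85% (36 regions, 32 at 90% or more). Those at 60% or lower at GD20 had a median of 75.4% (interquartile range 67.5 to 85.8, 20 regions), and 4 of the 20 stood at 90% or more. Continuous regions with the same GD20 range of at most 60% had a median of 96.6% in R1-8 (interquartile range 94.2 to 98, 441 regions) after a median of 96.8% at PND5. The choice of the groups bears on this contrast: continuous regions are those listed with a further gain of at least 30 points by PND5, and early gain regions of the same GD20 range are those not so listed. It bears on the classes within the early group too. A region of at most 60% at GD20 is early only when not so listed, while one above 70% could not be listed by a gain. The levels are therefore given as a description and support no difference between the groups or between the GD20 classes. Only listed regions enter, so these levels describe 20 of 687 regions, with a median of 7 CpGs in the whole class, against 9 in the continuous class.

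**Figure D5:**
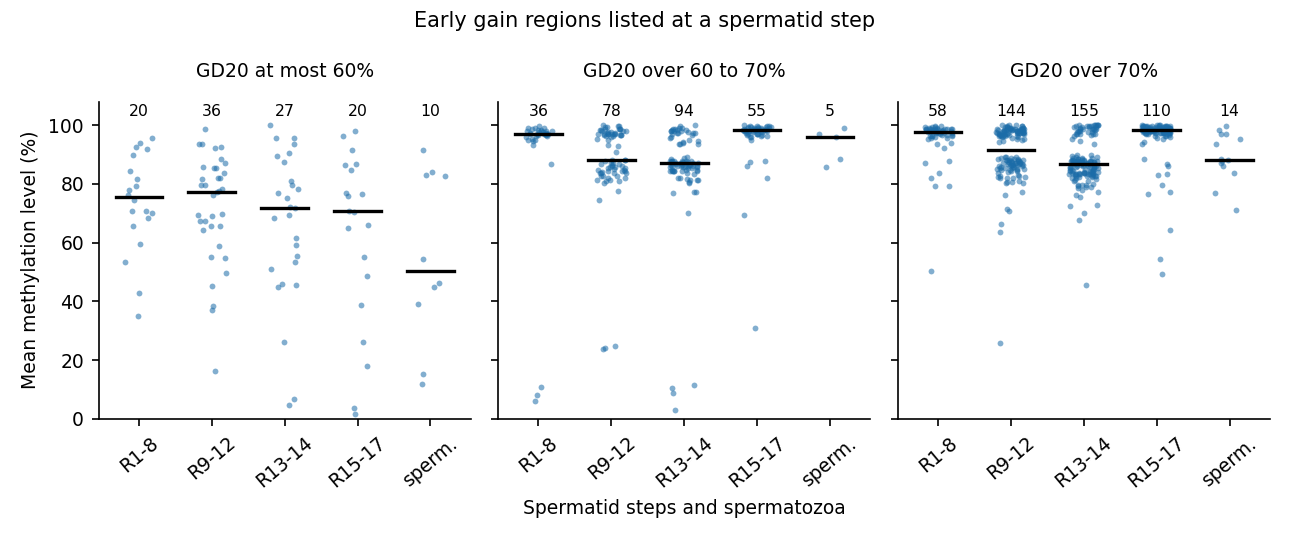
Mean methylation level (vertical axis, percent) of early gain regions at each spermatid stage and in spermatozoa (horizontal axis), for the regions listed there, in 3 panels by their level at GD20. Points are regions, lines are medians, and the numbers on top count the regions. In R1-8 the medians are 75.4%, 96.85% and 97.7% from left to right. The choice of the early group bears on this order, so it is a description only.

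Of the 350 listed early gain regions 19 stood under 50% at a spermatid stage or in spermatozoa, of which 13 had been at 60% or lower at GD20 and 2 above 70%. The share of 5.43% (3.5 to 8.32) stood beside 1.77% (1.27 to 2.47) of listed continuous regions, 28.6% of late and 14.5% of all listed gain regions, and the choice of the groups bears on it as above. An intergenic region on chromosome 6 (11580838 to 11580904) went from 36.3% at GD20 to 70.2%, 98.5%, 71.7%, 17.8% and 46.2% from R1-8 to spermatozoa. The 3' UTR of Mc5r, a melanocortin receptor gene (chromosome 18, 64117500 to 64117637), went from 57.9% at GD20 to 42.9%, 77.4%, 53.3%, 70.8% and 44.7%. Intron 2 of Crtac1 (chromosome 1, 261618607 to 261618721) had reached 68% at GD20 and stood at 6%, 24.1% and 3.1% in the first 3 spermatid stages, and intron 1 of Col4a1, a collagen of basement membranes (chromosome 16, 83556268 to 83556472), had reached 69.1% and stood at 10.8%, 24.9% and 8.9%. The promoter of Pbld1, whose sequence is printed above (chromosome 20, 27118419 to 27118737), went from 3.3% at GD18 to 74.2% at GD20, and then stood at 63.7% in R9-12, 80.8% in R13-14, 54.4% in R15-17 and 71.2% in spermatozoa. The regions named here hold 5 or 6 CpGs each.

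None of the early gain regions overlapped the authors' tables of reprogrammed CpGs, where 14 of 17 genic and 2 of 28 intergenic entries overlapped continuous or late regions. As 14.8% of all gain regions are early, so few entries give no sign that the group differs.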

How the data were processed

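DNA was captured with a rat methylome panel and bisulfite sequenced. The submitters' processing notes name Bowtie2 and Bismark 0.19.0. The sources used here give no genome build, no coverage minimum and no account of how the samples of 1 stage were joined. The authors deposited each region's level in both stages as a fraction, printed here as a percent, and a score, which is the later minus the earlier fraction. Per the file headers these are means over the CpGs of a stage, so no interval on a level can be given and leaving out samples is not possible. The deposited p-values and adjusted p-values, at most 0.012 for early gain regions, were used only to describe the lists, and adjusted p of gene ontology terms are the authors'.

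Group membership and gene parts are the authors', with a sheet whose starts are 1 bp higher matched to the other. Regions in 2 lists counted as matched when they shared 1 bp or more. Shares carry Wilson 95% intervals for counting error, as if regions were independent. Symbols and promoters came from RefSeq tables of GRCr8, used for names and sequences only; 4563 of 4862 genic early gain regions had a symbol. Overlap and interval functions were tested on simulated data. Python 3.11.15, pandas 2.3.3, numpy 2.4.6, scipy 1.17.1 and matplotlib 3.10.9 were used. Members, the 15 gene lists and tests were chosen with earlier results of these data known. Named regions were taken from those with the largest gains in genes, promoters, exons, transcript ends, gene lists and on the X chromosome, those at both ends of the GD20 level, the genes with the most early gain regions, and the largest differences in the GD16 and spermatid lists, not all of which are printed. Genes at the group boundary, of runs, of overlaps between lists and under 50% in spermatids, and Tmod3, Got2 and intron 5 of Dlgap2, were chosen after their values were seen, as were those so described in the text. Alternatives were at least 5 or 10 CpGs, at least 50 bp, gains of at least 50 points, GD20 of at most 70%, stricter overlaps, spermatid differences of at least 20 points, autosomes only, and other units for chromosomes and gene lists.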

Additional observations from a re-analysis of the deposited data

How the results depend on the processing

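Of 114 values under alternatives over 23 results, 93 moved by less than the counting interval, or by less than the spread over regions for medians, or stayed within 1.5 times a count. Every listed region has at least 5 CpGs, so that alternative changed nothing. Keeping regions with at least 10 CpGs, an alternative chosen after seeing the data, gave a genic share of 64.6% (60.2% before), a promoter share of 1.04%, an exon share of 5.05%, and spermatid shares of 0.603%, 1.32%, 1.48% and 0.219% by step, with 0% higher at the first step and 96.3% at the third. It left 681 in place of 2191 genes that hold early and other gain regions. Keeping regions of at most 70% at GD20, also chosen after seeing the data, gave a genic share of 58.7% and a promoter share of 2.19%. Spermatid differences of at least 20 points gave shares of 0.148%, 0.21%, 0.161% and 0.0371% by step, and higher shares of 25%, 23.5% and 69.2% at the first 3 steps. With identical coordinates the overlap with the list of GD20 against PND5 was 0 in place of 3. With promoter and exon regions only, 7 gene lists lay above the share of all genes, in place of 11. The causes were not tested where the alternative only keeps fewer regions. No paired analysis was possible because the lists hold 1 mean per stage and no value per sample, and leaving out single samples was not possible for the same reason. The unknown depth limits all levels, above all those over 5 or 6 CpGs.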
